A study of Equus caballus with 3 samples.

Results

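The genes described here are those of late cell cycle, from the G2 phase to the end of mitosis (G2/M). A list of 53 symbols was matched to the gene rows of 3 single-cell RNA sequencing (scRNA-seq) matrices of equine mesenchymal stromal cells (MSCs), and 51 were found among the 29927 gene rows of any matrix. *MKI67* and *TUBB4B* had no row under these symbols. The MSCs had been grown for 2 passages and came from the adipose tissue (AT), the bone marrow (BM) and the peripheral blood (PB) of the same healthy Warmblood mare, 10 years old, with 1 library per source. These sources follow the sample titles, and the source name field instead reads mononuclear cells of peripheral blood for all 3. All values therefore stem from 1 animal and 1 culture per source, so that source, culture and library cannot be told apart, and differences between sources have no replicate check and no test.

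At entry into mitosis, cyclin B activates the kinase CDK1, chromosomes condense, the nuclear envelope opens and microtubules form a spindle that attaches to the kinetochores. The anaphase-promoting ubiquitin ligase then marks cyclin B and securin, the inhibitor of separase, for destruction. Sister chromatids part and a contractile ring cuts the cell. Most genes for these steps are transcribed late in the cycle and fall silent after division, so that their transcripts mark dividing cells in a culture. Some members, such as the nuclear envelope protein gene *TMPO* and the chromatin genes *CTCF* and *CBX5*, also serve cells that are not dividing. The 51 genes were therefore described as 39 core members and 12 broad members, the latter being *ANP32E*, *CBX5*, *CKAP5*, *CKS1B*, *CTCF*, *G2E3*, *HMGB2*, *LBR*, *NCAPD2*, *RANGAP1*, *SMC4* and *TMPO*.

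Barcodes with 2500 to 15000 unique molecular identifiers (UMIs) and at most 3% of UMIs on the mitochondrial chromosome were kept, which gave 5403 AT-, 5580 BM- and 5318 PB-derived cells with a median of 7291, 6874.5 and 7750 UMIs. Levels are CPM, the UMIs of a gene summed over the kept cells of a source and scaled to a common total of UMIs, and all intervals are 95% intervals that cover counting error only. The CPM intervals take UMIs as independent, but core UMIs were clumped by cell. With every cell brought to 2500 UMIs, their variance over cells was 14.2, 13.1 and 12.4 times the mean in AT, BM and PB. CPM intervals of core members are therefore too narrow for the spread between cells, also where they lie apart. The MSC marker genes *THY1*, *CD44*, *ENG*, *ITGB1*, *B2M* and *PDGFRB* summed to 2789, 2414 and 2706 CPM in AT, BM and PB, while 8 haematopoietic markers summed to between 1.25 and 1.59 CPM, and *PTPRC*, the pan-leukocyte marker, was at 0 in all 3 libraries. Single MSC markers differed more than their sum, with *THY1* at 665, 531 and 90.5 CPM and *CD44* at 691, 285 and 522 CPM in AT, BM and PB. *B2M* made up much of the sum, with 1129, 1151 and 1781 CPM, and *ENG* was nearly level, with 62.2, 64.3 and 70.4 CPM. Markers of other stromal types differed between the sources as well. The 4 osteoblast markers found of 5 listed summed to 3.90 CPM in AT, 156 CPM in BM and 369 CPM in PB. Of these, *IBSP* had another order, with 0, 32.3 and 0.673 CPM. The 6 smooth muscle and pericyte markers summed to 1355, 964 and 690 CPM. This order was that of *ACTG2* (422, 184 and 52.4 CPM), *DES* (204, 5.04 and 0.288 CPM) and *MYH11*. The reverse order was found for *CSPG4* (1.98, 7.38 and 21.6 CPM) and *RGS5* (0.475, 0.522 and 0.745 CPM). *ACTA2* was highest in BM, with 721, 763 and 613 CPM. The 5 adipocyte markers summed to 3.43, 7.43 and 0.240 CPM, with *ADIPOQ*, *FABP4* and *LPL* at 0 in PB. *LPL* was highest in AT, at 1.80 CPM, whereas *PPARG* and *FABP4* were highest in BM, at 3.73 and 2.71 CPM. The 3 chondrocyte markers summed to 1.63, 12.7 and 6.90 CPM, with *COL2A1* at 0 in each source. *SOX9* made up most of this sum, with 1.58, 12.7 and 5.89 CPM, whereas *ACAN* was highest in PB, at 1.01 CPM. All 5318 kept PB barcodes also occurred in the AT matrix, where 5279 of them lay under 2500 UMIs and were not kept. Between 72 and 77 kept barcodes of a source were also kept in another library, and without them the core members summed to 744, 1379 and 633 CPM in AT, BM and PB.

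The core members were highest in BM-derived MSCs. Their summed level was 737 CPM (728 to 745) in AT, 1379 CPM (1368 to 1391) in BM and 633 CPM (625 to 640) in PB, a 1.87-fold difference between BM and AT and a 2.18-fold difference between BM and PB. AT and PB differed by 1.16-fold, and the CPM intervals do not tell whether this exceeds the spread between cells. For proliferation by uptake of a DNA label, a measure unlike transcript levels, the paper reports another order, with AT highest, then BM and PB. All 51 members together gave 2502, 3125 and 2061 CPM, with a smaller spread, because the broad members made up 1765, 1746 and 1429 CPM. *TMPO* alone contributed 1209, 1029 and 937 CPM and was detected in 98.7% to 99.5% of the cells of each source. Without *TMPO*, the members summed to 1292, 2097 and 1124 CPM.

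Of the 51 members, 50 were highest in BM, the exception being *TMPO*, which was highest in AT, and 43 were lowest in PB. At a mean of at least 5 CPM over the 3 libraries, 38 of 45 members were lowest in PB, beside 38.4% of all genes tested. The order of BM above the other sources was not the same under each scaling. With TMM factors, which correct for differences in RNA composition, 47 members were highest in BM (all but *TMPO*, *SMC4*, *PSRC1* and *G2E3*), and with every cell thinned to 2500 UMIs again 47 (all but *TMPO*, *CENPF*, *SMC4* and *DLGAP5*). BM was also the highest source for most other genes. Among the 8426 genes with a mean of at least 5 CPM over the 3 libraries, 59.0% were highest in BM, and for 38.7% the BM counting interval lay above those of AT and PB. Of the 45 members at that level, 44 were highest in BM and 43 had a BM interval above both others. With TMM factors 42 of the 45 were highest in BM, beside 31.4% of all genes tested, and with thinning also 42, beside 57.4%. The 6 members below it were *BUB1*, *HJURP*, *CDC25C*, *DLGAP5*, *PSRC1* and *GAS2L3*.

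The median difference of the 45 members on the log2(CPM + 1) scale was 0.63 for BM over AT and 0.95 for BM over PB, beside 0.24 and 0.20 for all 8426 genes. TMM factors lowered these differences of all genes by 0.26 and 0.22, and relative to the median of all genes 42 of the 45 members were still higher in BM than in AT and 44 higher in BM than in PB. For AT over PB, the members had a median of 0.24 and all genes of -0.03. The comparisons with AT and with PB share the BM library and are given side by side.

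In the comparison of BM with AT, 6 of 45 members were past a 2-fold difference (log2 difference above 1), all higher in BM. Of all genes tested, 7.90% were past 2-fold and higher in BM. The 6 members were *CDK1*, *CCNB1*, *CKS2*, *AURKB*, *BIRC5* and *ANLN*, and *CDCA3*, at 0.996, just missed the limit. In the comparison of BM with PB, 20 of 45 members were past 2-fold and higher in BM, which was 44.4% of the members beside 5.44% of all genes tested. Between AT and PB no member was past 2-fold in either direction, beside 8.94% of all genes. With thinning 1 member, *CENPF*, passed for AT over PB, beside 8.97%. With TMM factors the counts were 2 members for BM over AT (*BIRC5* and *ANLN*), beside 5.34% of all genes, and 5 for BM over PB (*CDK1*, *AURKB*, *KIF23*, *CDCA8* and *CDC20*), beside 3.68%. The split over all genes moved as well, from 666 higher in BM and 171 higher in AT to 450 and 292. With a pseudocount of 25 CPM in place of 1, which dampens genes of low level, 2 members passed for BM over AT, beside 1.79% of all genes, and 0 for BM over PB, beside 1.08%.

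**Figure D1:**
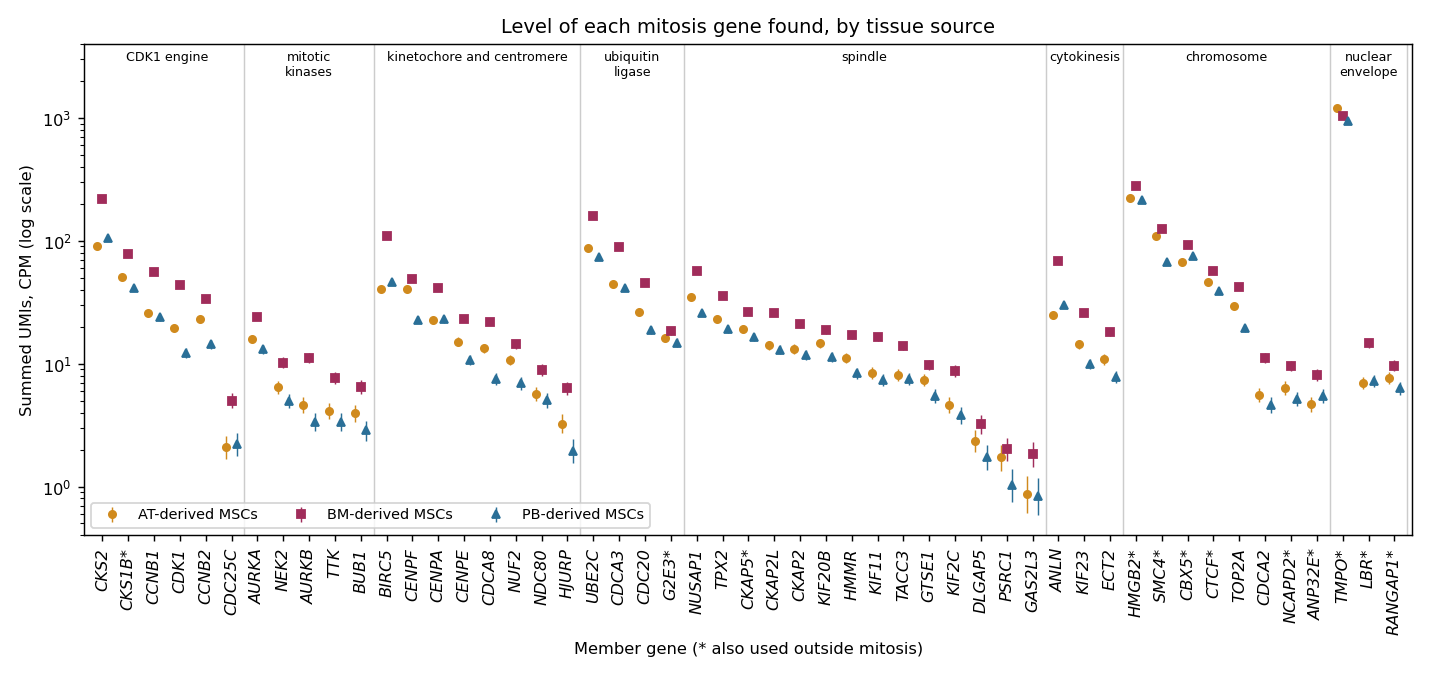
Level of each of the 51 member genes (summed UMIs as CPM, logarithmic axis) in AT-, BM- and PB-derived MSCs, grouped by role, with exact 95% Poisson intervals as bars and broad members marked by an asterisk. The BM squares lie above the other symbols for all members except *TMPO*, at 1029 CPM in BM and 1209 CPM in AT.

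The genes of the CDK1 engine, the kinase with its cyclins and helper subunits, summed to 213 CPM in AT, 434 CPM in BM and 199 CPM in PB. *CDK1* itself, the kinase that drives entry into mitosis, reached 19.6 CPM (18.3 to 21.1) in AT, 43.3 CPM (41.3 to 45.4) in BM and 12.3 CPM (11.2 to 13.4) in PB, and the 3 intervals were apart. It had the largest BM over PB difference of all members, 1.74 on the log2 scale. *CCNB1*, one of the cyclins that activate CDK1, showed 25.9 CPM in AT, 56.1 CPM in BM and 23.9 CPM in PB. The other such cyclin, *CCNB2*, had 23.0, 33.8 and 14.4 CPM, so that AT lay closer to BM for *CCNB2* than for *CCNB1*. *CKS2*, a small subunit that binds cyclin-dependent kinases, took the most UMIs of the group, with 91.5 CPM (88.6 to 94.5) in AT, 218 CPM (213 to 222) in BM and 105 CPM (102 to 108) in PB. Here PB was above AT. Its paralogue *CKS1B* had 50.4, 78.2 and 41.3 CPM, and reads that both genes could give would make their split uncertain. *CDC25C*, the phosphatase that releases CDK1 from inhibition, was at 2.10 CPM in AT, 4.995 CPM in BM and 2.21 CPM in PB, the lowest of the group.

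The mitotic kinases summed to 35.0 CPM in AT, 59.5 CPM in BM and 27.6 CPM in PB. *AURKB*, the kinase of the chromosomal passenger complex that corrects wrong attachments, had 4.63 CPM (3.98 to 5.34) in AT, 11.03 CPM (10.03 to 12.1) in BM and 3.34 CPM (2.81 to 3.94) in PB. BM was apart from both other sources, whose intervals nearly met. *AURKA*, which acts at the spindle poles, gave the most UMIs of these kinases, with 15.9, 24.1 and 13.1 CPM. *BUB1*, a kinase of the spindle checkpoint, gave the fewest, with 3.95, 6.46 and 2.86 CPM. The checkpoint kinase *TTK* and the centrosomal kinase *NEK2* lay between these, and all 5 kinases were highest in BM.

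The 8 genes of kinetochores and centromeres summed to 152 CPM in AT, 274 CPM in BM and 124 CPM in PB. *BIRC5*, which encodes survivin of the chromosomal passenger complex, had 40.5 CPM (38.6 to 42.6) in AT, 109 CPM (106 to 112) in BM and 46.5 CPM (44.5 to 48.7) in PB, a log2 difference of 1.40 between BM and AT. *CDCA8*, which encodes borealin of the same complex, had 13.3, 21.9 and 7.47 CPM and thus another order, with AT above PB. The centromere histone *CENPA* was nearly level in AT and PB, with 22.7 and 22.9 CPM beside 41.4 CPM in BM, and the order of AT and PB turned with TMM factors and with thinning. *CENPE*, a kinesin that carries chromosomes to the spindle equator, had 15.1, 23.2 and 10.7 CPM. *CENPF*, a large kinetochore protein, was the core member with AT closest to BM among those at or above 5 CPM, at 40.3 CPM (38.3 to 42.3) in AT, 49.0 CPM (46.9 to 51.2) in BM and 22.8 CPM (21.4 to 24.3) in PB. With every cell thinned to 2500 UMIs, the BM over AT difference of *CENPF* turned from 0.28 to -0.06 on the log2 scale. *HJURP*, the chaperone that loads CENPA, was lowest of the group with 3.25, 6.31 and 1.95 CPM.

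The genes of the ubiquitin ligase group summed to 174 CPM in AT, 311 CPM in BM and 149 CPM in PB. *UBE2C*, the conjugating enzyme of the anaphase-promoting complex, had 86.9 CPM (84.1 to 89.9) in AT, 158 CPM (154 to 162) in BM and 73.7 CPM (71.1 to 76.4) in PB. *CDC20*, which activates the complex at anaphase, followed the same order with 26.5, 45.7 and 18.7 CPM. *CDCA3* had 44.3, 89.5 and 41.3 CPM. The ligase *G2E3*, a broad member, was nearly flat, with 16.3 CPM (15.0 to 17.6) in AT, 18.4 CPM (17.1 to 19.8) in BM and 14.8 CPM (13.7 to 16.0) in PB, and the intervals of AT and BM overlapped.

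The 14 spindle genes found summed to 164 CPM in AT, 258 CPM in BM and 134 CPM in PB. *NUSAP1*, which bundles microtubules around chromosomes, gave the most UMIs, with 35.0 CPM (33.2 to 36.9) in AT, 56.8 CPM (54.5 to 59.2) in BM and 25.8 CPM (24.3 to 27.4) in PB. The motor *KIF11*, which pushes the spindle poles apart, had 8.43, 16.5 and 7.42 CPM, and the depolymerase *KIF2C* had 4.60, 8.75 and 3.80 CPM. Both were past 2-fold for BM over PB. *GAS2L3* was near the lower end of what the depth could resolve, with only 35, 74 and 35 UMIs, or 0.875, 1.84 and 0.841 CPM.

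In the cytokinesis group, *ANLN* stood out. This gene, which encodes the scaffold anillin of the contractile ring, had 24.8 CPM (23.3 to 26.4) in AT, 68.7 CPM (66.2 to 71.3) in BM and 29.8 CPM (28.2 to 31.5) in PB, and its BM over AT difference of 1.44 on the log2 scale was the largest of all members. *KIF23*, the motor of the central spindle, had 14.4, 26.0 and 9.99 CPM, and *ECT2*, which activates the small GTPase of the ring, had 10.8, 18.1 and 7.83 CPM. PB was thus above AT for *ANLN* and below AT for the other two.

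The chromosome group showed a smaller spread, with sums of 491 CPM in AT, 623 CPM in BM and 429 CPM in PB. *TOP2A*, the topoisomerase that untangles sister chromatids, had 29.7 CPM (28.0 to 31.5) in AT, 42.2 CPM (40.2 to 44.3) in BM and 19.3 CPM (18.0 to 20.7) in PB. *CDCA2*, which brings a phosphatase to chromatin at mitotic exit, had 5.60, 11.2 and 4.61 CPM. *HMGB2*, a chromatin protein and broad member, gave the most UMIs of the group with 221, 278 and 213 CPM, and *ANP32E*, a chaperone of a histone variant, the fewest with 4.68, 8.13 and 5.45 CPM. By the share of cells with a UMI, *HMGB2* had another order, with 55.3% in AT, 47.0% in BM and 61.0% in PB, and with 29.2%, 27.8% and 31.8% after thinning. The condensin subunit *SMC4* had 109, 125 and 67.4 CPM but was detected in 38.2%, 36.2% and 28.1% of cells, so that AT was above BM by this measure. By the share of cells, 48 of the 51 members were highest in BM, the exceptions being *TMPO*, *SMC4* and *HMGB2*. The same count over all genes was not made for this measure, and by CPM 59.0% of all genes tested were highest in BM.

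In the nuclear envelope group, *LBR*, the lamin B receptor, had 6.98 CPM in AT, 14.7 CPM in BM and 7.23 CPM in PB, and *RANGAP1*, the activator of the Ran GTPase, had 7.63, 9.64 and 6.32 CPM. *TMPO*, which encodes lamina-associated proteins, ran against the other members, with 1209 CPM (1199 to 1220) in AT, 1029 CPM (1019 to 1039) in BM and 937 CPM (928 to 946) in PB. With TMM factors, its order between BM and PB turned as well, from a log2 difference of 0.13 to -0.10.

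Across cells, the core members were very uneven. The median cell of each source held 1 core UMI, whereas the mean was 5.45 in AT, 9.95 in BM and 4.95 in PB and the 99th percentile was 101, 123 and 98 UMIs. Cells without any core UMI made up 38.5%, 29.8% and 44.9% of AT, BM and PB. The 10% of cells with the most core UMIs per UMI of the cell held 79.6%, 67.5% and 84.5% of all core UMIs, although they held only 10.9% to 12.2% of all UMIs.

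Cells were compared at equal depth by thinning each to 2500 UMIs, and cells with at least 5 core UMIs of these are called high cells. The share of high cells was 8.62% (7.89% to 9.41%, Clopper-Pearson interval, 466 of 5403 cells) in AT, 16.4% (15.4% to 17.4%, 914 of 5580) in BM and 7.47% (6.77% to 8.20%, 397 of 5318) in PB. BM was apart from both other sources, and the intervals of AT and PB overlapped. Without thinning, the shares were 14.6%, 26.7% and 11.5%. The limit is a point on a range and not a border between cell types, since 58 AT, 79 BM and 36 PB high cells lay within 1 UMI of it, as did 80, 134 and 46 of the other cells.

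**Figure D2:**
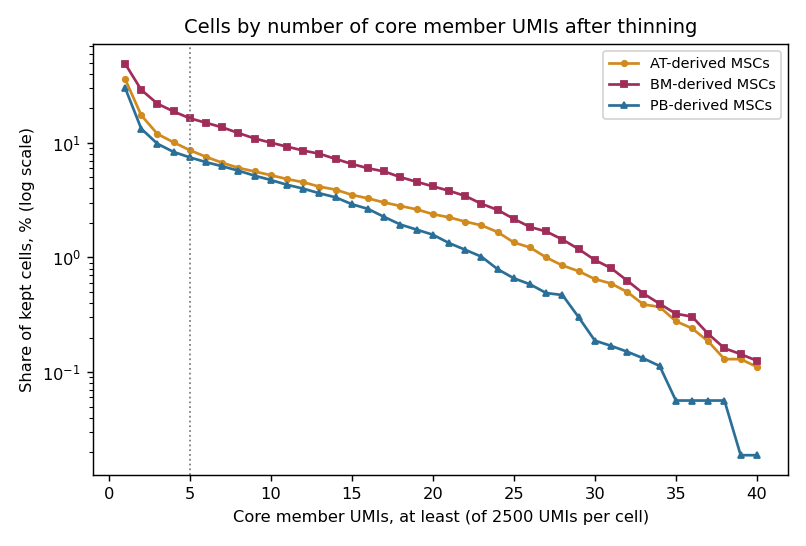
Share of kept cells (percent, logarithmic axis) with at least the number of core member UMIs on the x axis after thinning each cell to 2500 UMIs, for AT-, BM- and PB-derived MSCs, with the limit of 5 UMIs as a dotted line. At this limit the BM curve is at 16.4%, above AT at 8.62% and PB at 7.47%.

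The share of high cells and the summed core level are readings of the same UMIs. The share of high cells in BM was 1.90 times that in AT and 2.19 times that in PB, beside ratios of 1.87 and 2.18 for the summed core CPM. Within the high cells, the core members summed to 5857 CPM in AT, 5681 CPM in BM and 5474 CPM in PB, a level that the limit used to choose the cells helps to set. High cells held 75.7%, 81.9% and 78.2% of all core UMIs. In the other cells, the core members summed to 198, 312 and 152 CPM, so that BM was also the highest source outside the high cells, by 1.57-fold over AT and 2.05-fold over PB. Single members were read in the cells left when the other core members alone chose the high cells. There, 40 of the 51 members were highest in BM. Another 10 were highest in AT, among them the core members *TPX2*, *CENPF*, *KIF20B*, *GTSE1*, *DLGAP5* and *ECT2*. *HMGB2* was highest in PB and lowest in BM, with 121, 99.8 and 149.9 CPM. The share of all genes highest in BM was not counted for these cells. It was 59.0% over all kept cells for genes at or above 5 CPM, a level that some of the 51 members miss. Cells were also clustered without the listed cell cycle genes. The clusters with over 1000 CPM of core members held 27.2%, 58.4% and 32.9% of the core UMIs of the other cells in AT, BM and PB. In the other cells outside such clusters, the core members were at 154 CPM (150 to 158) in AT, 168 CPM (163 to 173) in BM and 107 CPM (104 to 111) in PB. Over all cells outside such clusters, AT was above BM, with 185, 174 and 113 CPM. This order hangs on the limit of 1000 CPM, which was set on the measured genes themselves. Cluster 4 of BM lay just over it, at 1051 CPM (1022 to 1080). That cluster held 5035 core UMIs, beside 4359 in all BM cells outside such clusters.

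Because the core members chose the cells, the same was done with the list divided by alphabetical alternation into 20 and 19 genes, one set choosing cells with at least 3 of its own UMIs and the other being measured. The 19 genes summed to 2170 CPM in AT, 1966 CPM in BM and 1887 CPM in PB in the cells chosen by the other 20, and to 67.5, 100.1 and 51.2 CPM in the remaining cells. The 20 genes summed to 3873, 3922 and 3887 CPM in the cells chosen by the other 19, and to 173, 307 and 150.0 CPM in the rest. The genes not used for choosing were thus 12.8 to 36.9 times higher in the chosen cells. For the 19 genes AT was above BM and BM above PB in the chosen cells, with intervals apart, whereas the intervals of the 20 genes overlapped.

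For each member, cells were also chosen by the other core members alone, and its level in these high cells was set beside that in the remaining cells. The median log2 difference of the 39 core members was 4.31 in AT, 3.89 in BM and 4.62 in PB, and the 12 broad members had medians of 1.80 to 1.82. *CENPF* had the steepest difference, from 3.95 CPM in other cells to 392 CPM in high cells of AT, from 3.04 to 235 CPM in BM and from 2.01 to 234 CPM in PB. *CDC20* had log2 differences of 5.64, 5.21 and 5.90. *CKAP2L*, a spindle protein gene, had the smallest difference of the core members, 2.32, 1.92 and 2.61. Only *TMPO* was lower in the high cells of all 3 sources, by log2 differences of -0.29, -0.37 and -0.66, with 1009 CPM in high and 1230 CPM in other cells of AT. The chromatin genes *CBX5*, at 0.26 to 0.58, and *CTCF*, at 0.78 to 1.03, were the next lowest.

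**Figure D3:**
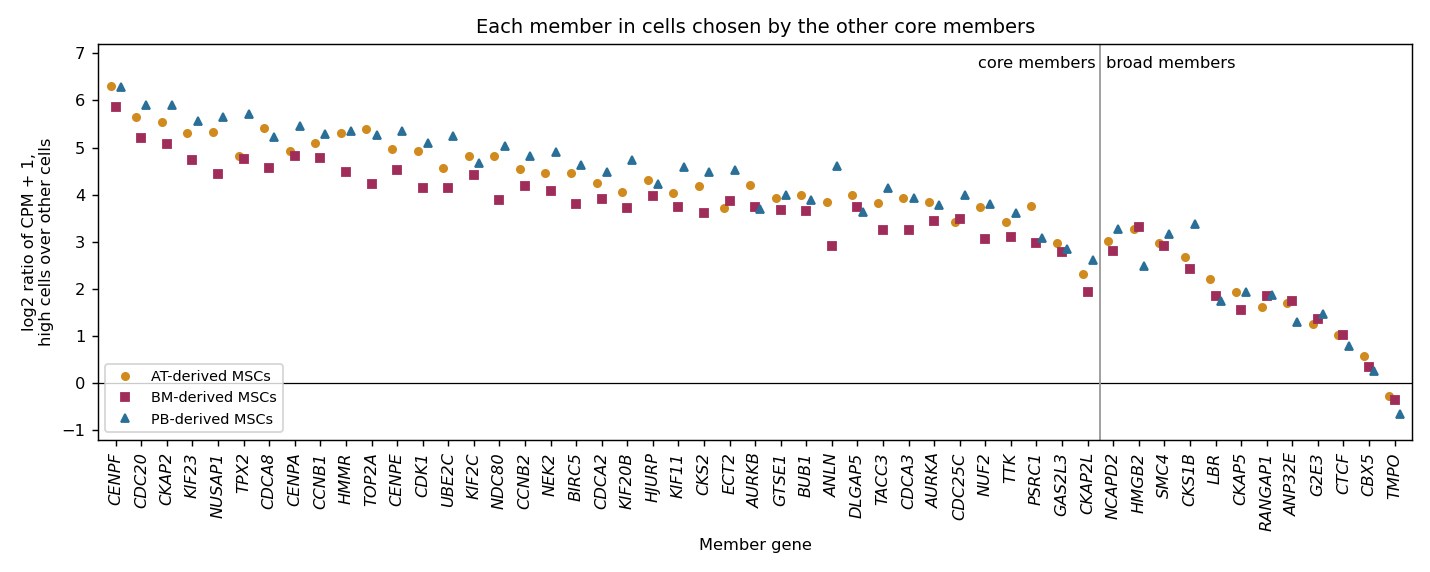
Log2 ratio of CPM + 1 in high cells over other cells for each member, with the cells chosen by the other core members, in AT-, BM- and PB-derived MSCs. The core members lie between 1.92 and 6.31 and the broad members between -0.66 and 3.37, with *TMPO* below 0 in all 3 sources.

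No core member was past 2-fold between BM and the other sources within the high cells, beside 8.47% of all genes tested for BM against AT and 5.80% for BM against PB. The same limit on core UMIs chose these cells in each source and helps to set the core levels, unlike those of most other genes. Whether dividing cells of the sources hold equal levels cannot be read from this count. Within the high cells, the median log2 difference of the core members was -0.14 for BM over AT and 0.03 for BM over PB, and 25 of the 39 were higher in AT than in BM. All genes tested had medians of 0.20 and 0.15 there, and their share higher in AT than in BM was not counted. The 39 include members under 5 CPM, whereas the genes tested do not. *CENPF* was at 392 CPM in AT beside 235 CPM in BM and 234 CPM in PB, and *TOP2A* at 266 CPM in AT beside 180 and 178 CPM. In contrast, *ANLN*, with 165, 233 and 247 CPM, *BIRC5*, with 315, 446 and 386 CPM, and *CKS2*, with 660, 864 and 857 CPM, were lowest in the high cells of AT. In the remaining cells, 2 of the 33 core members at or above 5 CPM were past 2-fold for BM over AT, beside 8.12% of all genes tested, and 8 of the 33 for BM over PB, beside 5.23%. *ANLN* was 10.5, 29.96 and 9.13 CPM there, *BIRC5* 13.5, 30.9 and 14.7 CPM, and *CKS2* 35.4, 70.0 and 37.4 CPM.

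A typical high cell held UMIs of many members at once, with a median of 18, 17.5 and 18 different core genes in AT, BM and PB beside 1 in the other cells. *BIRC5* was detected in 92.3% of the high cells of BM and in 13.3% of the others, and *TPX2*, which encodes a spindle assembly factor, in 65.4% and 2.98%. Genes of DNA replication were also higher in these cells. The 41 S phase genes found summed to 1838 CPM in the high cells of AT, 2739 CPM in those of BM and 2120 CPM in those of PB, beside 558, 789 and 457 CPM in the other cells. The MSC markers were lower in the high cells, with 2322, 1788 and 1951 CPM beside 2838, 2570 and 2781 CPM. So were the osteoblast markers, with 2.89, 40.1 and 175 CPM in the high cells of AT, BM and PB beside 4.01, 185 and 388 CPM in the others, the AT value resting on 11 UMIs. The smooth muscle and pericyte markers had 1005, 1017 and 1023 CPM in the high and 1392, 951 and 656 CPM in the other cells, and thus another order in AT than in BM and PB. The haematopoietic markers had 0.263, 2.75 and 0.798 CPM in the high and 1.35, 1.30 and 1.66 CPM in the other cells, on 1, 22 and 3 UMIs in the high cells. The part of cells with these markers in the member levels was not tested.

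The high cells also had more UMIs before thinning, with medians of 7653.5, 8740.5 and 9664 UMIs beside 7265, 6649.5 and 7680 in the other cells. The share of high cells was 7.51% in AT, 9.86% in BM and 4.63% in PB among cells of 5000 to under 7500 UMIs, where the intervals of AT and BM just overlapped, and 18.8%, 42.0% and 19.2% among cells of 10000 to 15000 UMIs. BM had the highest share in each of the 4 depth ranges kept, and its distance from AT was 2.36 percentage points in the former range and 23.2 in the latter. Cells with a high Scrublet score, a measure of likely doublets, were about as common among high cells as among others. Kept cells with a score above the 95th percentile of their source were fewer than 5%, because many scores were tied. They made up 3.65%, 4.27% and 4.53% of the high cells in the order AT, BM, PB, beside 3.69%, 4.52% and 4.10% of the other cells. Leaving them out changed neither the order of the sources nor a share by more than its interval.

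**Figure D4:**
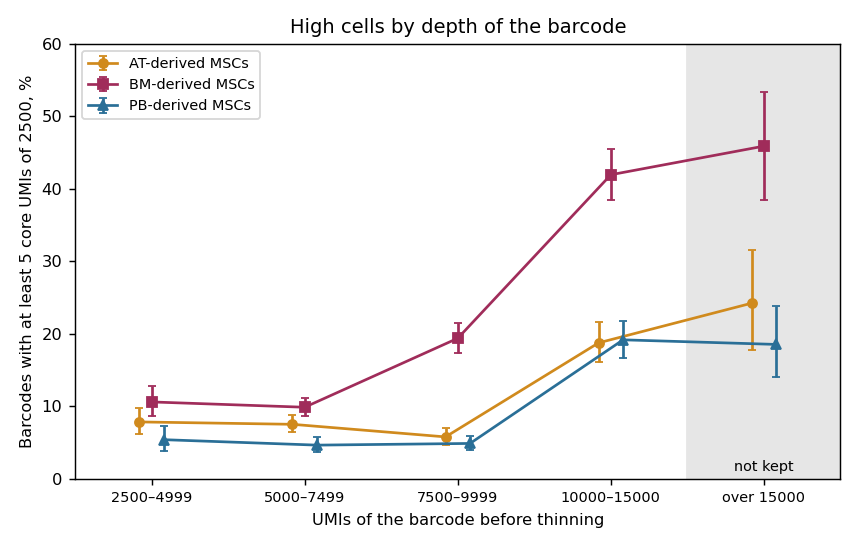
Share of barcodes with at least 5 core UMIs of 2500 (percent, with Clopper-Pearson intervals) by UMIs of the barcode before thinning, for AT-, BM- and PB-derived MSCs, with barcodes over 15000 UMIs, which were not kept, on grey. BM lies above AT and PB in every range, with 42.0% beside 18.8% and 19.2% at 10000 to 15000 UMIs.

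When cells were clustered within each source without the cell cycle genes of the lists, the high cells fell into few clusters. Unlisted genes that rise with the members, such as *CDKN3* and *REEP4*, stayed in. This grouping is therefore not independent of the cell cycle. In AT, cluster 3 (636 cells) held 82.2% of the high cells, with a core level of 4176 CPM, and in PB, cluster 9 (615 cells) held 97.2%, with 3904 CPM. Cluster 4 of AT (1254 cells) held a further 12.7% of the high cells of AT, at a core level of 341 CPM. In BM the high cells were divided more evenly. Cluster 3 (667 cells) held 46.0% of the high cells at 3830 CPM, cluster 6 (554 cells) held 40.9% at 5341 CPM and cluster 4 (625 cells) held 11.8% at 1051 CPM. With the cell cycle lists set aside, the leading genes included *CALCA*, *HMX2* and *IGFBP5* in cluster 3 of BM, *PRR11* and *CDKN3* in cluster 6 and *TAGLN3* and *EREG* in cluster 4. In cluster 3 of AT and cluster 9 of PB they included *PRR11*, *MIS18A* and *SKA1*. Outside cluster 3 of AT, cluster 9 of PB and clusters 3, 4 and 6 of BM, the core members were between 73.2 and 341 CPM. The exception was cluster 5 of AT, which had 27 cells and 1657 CPM. The barcodes of all 27 also occurred in the PB matrix, where none was kept. *ALPL*, the alkaline phosphatase gene of osteoblasts, led this cluster with 296 CPM, beside 2.88 CPM in all kept AT cells, 95.95 CPM in BM and 326 CPM in PB. Other leading genes also stood far above all kept AT cells, namely *JAM2*, *DLX5*, *CCL2*, *CA2* and *TCF7*. *CCL2* had 639 CPM, beside 16.3, 553 and 560 CPM in AT, BM and PB, and *JAM2* had 130 CPM, beside 1.60, 456 and 166 CPM. Without AT barcodes that the PB matrix also holds, the share of high cells in AT was 8.61%.

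The 2 main groups of high cells in BM differed in level. Within high cells, 38 of 39 core members were higher in cluster 6 than in cluster 3, with intervals apart for 25 of them, beside 41.3% of all genes tested that were higher in cluster 6 and 11.6% with intervals apart. The core sum was 7011 CPM beside 5441 CPM. *CENPF* had 380 CPM in cluster 6 and 168 CPM in cluster 3, and the spindle gene *CKAP2* had 149.6 and 80.9 CPM. Only *CDK1* was higher in cluster 3, with 197 beside 182 CPM and overlapping intervals. The S phase genes had the reverse order, with 2091 CPM in cluster 6 and 3015 CPM in cluster 3, and the cells of cluster 6 had fewer UMIs, with a median of 7303.5 beside 9688.5. These clusters came from the same cells, so the differences are a description.

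**Figure D5:**
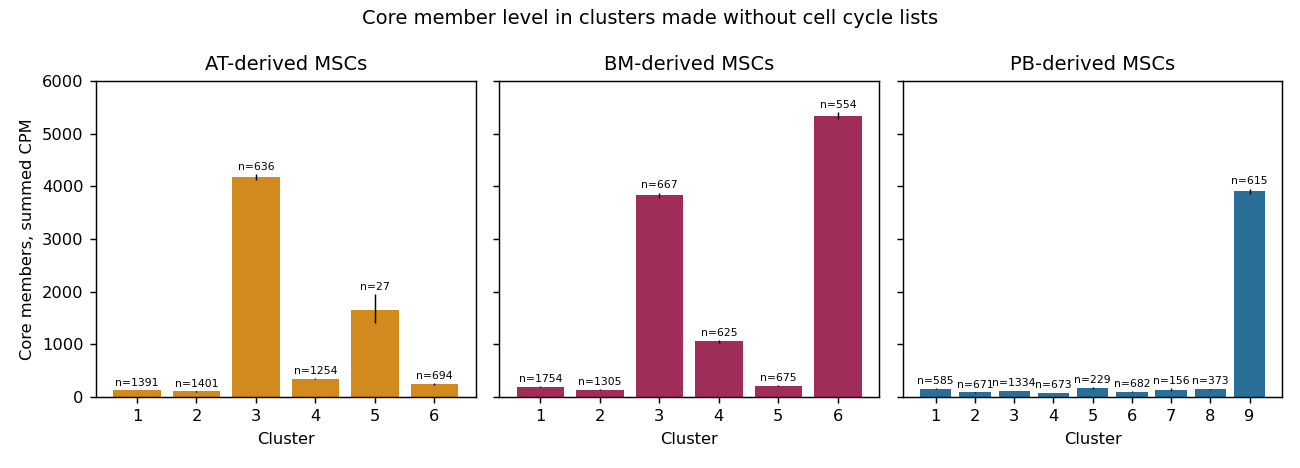
Summed level of the core members (CPM, with exact 95% Poisson intervals) in each cluster of AT-, BM- and PB-derived MSCs, with the number of cells above each bar. One large cluster stands high in AT (4176 CPM) and in PB (3904 CPM), whereas clusters 3, 4 and 6 stand out in BM (3830, 1051 and 5341 CPM).

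Other mitosis genes that are not members gave a like picture. Of 50 listed, 47 were found, with sums of 783 CPM in AT, 1393 CPM in BM and 694 CPM in PB, and of the 31 at or above 5 CPM, 28 were highest in BM, beside 59.0% of all genes tested. The median log2 difference of the 47 was 0.76 for BM over AT and 1.01 for BM over PB, and of those 31 genes, 8 were past 2-fold and higher in BM than in AT and 18 than in PB, beside 7.90% and 5.44% of all genes tested. *JPT1* had 123, 284 and 174 CPM, *UBE2S*, which extends ubiquitin chains for the anaphase-promoting complex, had 123, 210 and 94.0 CPM, and the checkpoint gene *BUB3* had 53.03, 75.6 and 50.3 CPM. *ESPL1*, which encodes separase, was highest in AT, with 66.8, 54.6 and 53.1 CPM. The S phase genes summed to 680, 1177 and 607 CPM, and of the 31 of them at or above 5 CPM, 29 were highest in BM, beside the same 59.0% of all genes.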

How the data were processed

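Droplet 3′ scRNA-seq (10X Genomics, version 2 chemistry) had been run on 1 library each of AT-, BM- and PB-derived MSCs, and the submitters' processing notes name Cell Ranger and the EquCab3.0 build. According to the methods, reads were mapped with CellRanger and UMIs per gene were counted with ESAT, which also takes reads just downstream of an annotated gene and leaves out overlapping exons of opposite strands. The deposited tables hold counts of UMIs as whole numbers, 1 row per gene and 1 column per barcode, and were not normalized. Members were matched by symbol, and no other columns were used. No sequence, promoter or protein was analysed here.

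Barcodes under 2500 or over 15000 UMIs, or with more than 3% mitochondrial UMIs, were left out, leaving 39980656, 40239295 and 41622445 UMIs for AT, BM and PB, so that 3 UMIs correspond to 0.0750, 0.0746 and 0.0721 CPM. Levels are CPM of summed UMIs, and differences are of log2(CPM + 1). Poisson and Clopper-Pearson intervals (SciPy 1.17.1) are exact. Each cell was thinned to 2500 UMIs without replacement, and no kept cell was shallower. Scrublet scores and Leiden clusters (3000 variable genes, 20 components, 20 neighbours, resolution 0.6, without the cell cycle lists) came from Scanpy 1.11.5, and TMM factors (0.928, 1.13 and 0.957) from edgeR 4.0.16. According to the methods, likely multiplets were removed with DoubletDetection before later steps, and barcodes over 15000 UMIs were taken for likely doublets. Whether the former were removed before deposit is not given in the sources used here, and the tables still hold barcodes over 15000 UMIs. The study fitted edgeR models to single cells, which was not repeated, because cells are not replicates. The scripts were tested on simulated data.

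The members and lists were chosen with earlier results of these data known. Named are members past 2-fold and the highest and lowest of each role group by mean CPM, examples after inspection, the 4 genes of highest mean CPM of another list and the 10 non-members most like the members. Alternatives were the cell limits, thinning, TMM factors, pseudocount, minimum level, member set, thresholds, Scrublet removal and shared barcodes.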

Additional observations from a re-analysis of the deposited data

Results flagged for a closer look

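Barcodes that the limits left out, used only where a limit was lifted as an alternative, also carried core member UMIs. Barcodes over 15000 UMIs had 1837 CPM of core members in AT (161 barcodes), 3084 CPM in BM (183 barcodes) and 1322 CPM in PB (259 barcodes), beside 737, 1379 and 633 CPM in the kept cells. At equal depth, 24.2%, 45.9% and 18.5% of these barcodes had at least 5 core UMIs of 2500. Barcodes removed for mitochondrial UMIs had 1744 CPM in AT (38 barcodes), 1212 CPM in BM (166 barcodes) and 1666 CPM in PB (49 barcodes), so that BM was below its kept cells and AT and PB were above theirs. With 10 high barcodes in AT and 10 in PB, these last levels rest on few cells.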

How the results depend on the processing

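The summed level of all 51 members kept its direction between sources under each alternative run for it. Of the role group sums, the nuclear envelope genes turned from 0.15 to -0.09 for BM over PB with TMM factors and the cytokinesis genes from 0.068 to -0.00070 for AT over PB with barcodes of at least 500 UMIs, where the broad members turned from 0.016 to -0.0088 for AT over BM. For the summed level of all 51 members, the log2 differences were -0.32 for AT over BM, 0.28 for AT over PB and 0.60 for BM over PB. In the same order they were -0.23, 0.32 and 0.55 with every cell thinned to 2500 UMIs, -0.041, 0.32 and 0.37 with TMM factors and -0.23, 0.31 and 0.54 as the mean of single-cell CPM. They were -0.90, 0.22 and 1.12 for core members alone, and, as alternatives chosen after seeing the data, -0.70, 0.20 and 0.90 without *TMPO* and -0.65, 0.38 and 1.03 for core members outside the high cells. With all barcodes of at least 500 UMIs, AT over BM was -0.35 and AT over PB 0.26, but of the 6155 AT barcodes under 2500 UMIs, 85.8% were also kept in PB. The all-member difference between AT and BM thus nearly vanished with TMM factors, whereas the core members kept a log2 difference of 0.62 for BM over AT.

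The share of high cells in AT, BM and PB was 14.6%, 26.7% and 11.5% without thinning, 12.0%, 21.97% and 9.82% for at least 3 UMIs, 5.22%, 10.0% and 4.74% for at least 10 UMIs, and 50.4%, 51.2% and 35.4% with all members in place of the core. Without an upper UMI limit it was 9.31%, 17.5% and 7.70%, thinned in a draw of its own, while another draw of the kept cells gave 16.9% in BM. Past 2-fold and higher in BM than in AT were 6 members (7.90% of all genes), but 2 with a pseudocount of 25 CPM (1.79%) and 2 with TMM factors (5.34%). For AT against PB, counted in either direction, 0 (8.94%) became 1 after thinning (8.97%). Past 2-fold and higher in BM than in PB, 20 (5.44%) became 0 with the larger pseudocount (1.08%) and 5 with TMM factors (3.68%). The causes were not tested. Another random draw and leaving out barcodes kept in another library, both chosen after seeing the data, moved no share past its interval. Single members turned their order between AT and BM (*SMC4*, *PSRC1* and *G2E3* with TMM factors and *CENPF*, *SMC4* and *DLGAP5* with thinning), between BM and PB (*TMPO* with TMM factors) and between AT and PB (*CENPA* with TMM factors, with thinning, without an upper UMI limit and as the mean of single-cell CPM, and *LBR* with the last).

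No paired analysis was possible because each source had 1 library. For the same reason no replicate could be left out. Depth limits the members under 5 CPM most, such as *GAS2L3* with 35 UMIs in AT.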

Other observations

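Non-members with a mean of at least 25 CPM, 3920 genes in all, were ranked by how much higher they were in the 10% of cells with the highest percentage of member UMIs than in the 50% with the lowest, taking the lowest of the 3 sources. The order of the first 10 was *CCNA2*, *ENSECAG00000026891*, *PRC1*, *PBK*, *NCAPG*, *REEP4*, *CDKN3*, *HMGB3*, *H2AFX* and *UBE2S*. *CCNA2*, the cyclin that precedes cyclin B, had 163 CPM in the top and 0.920 CPM in the low cells of AT, 295 and 1.94 CPM in BM, and 134 and 0.745 CPM in PB. *ENSECAG00000026891*, which the files give without a symbol, had 302 and 5.57 CPM in AT, 618 and 16.1 CPM in BM, and 463 and 9.49 CPM in PB. It was highest in BM over all kept cells, with 151 CPM beside 43.3 CPM in AT and 67.8 CPM in PB. Of these 10 genes, *CCNA2*, *PRC1*, *PBK*, *NCAPG* and *UBE2S* are on the list of other mitosis genes.

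*REEP4*, which clears endoplasmic reticulum from chromosomes in mitosis, had 442 and 29.8 CPM in AT, 441 and 31.7 CPM in BM and 309 and 24.1 CPM in PB. *H2AFX*, a histone of the DNA damage response, had 316, 527 and 231 CPM in the top cells of AT, BM and PB, beside 32.7, 35.3 and 26.7 CPM in the low cells. The members themselves, ranked in the same way with the cells chosen by the other members, had a median of the lowest log2 difference of 4.42 for the 39 core and 1.62 for the 12 broad members.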
